A study of Mus musculus with 4 samples.

Results

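The step described here is the last one of a transcription shut-off course, from 4 h to 6 h of actinomycin D, and it sets the library taken at 6 h against the library taken at 4 h. These are 2 of the 4 libraries of the course, chosen by the treatment in their labels, and the ratio of their counts was taken for each of 10837 genes out of the 41324 in the table. All libraries came from RAW264.7, an established mouse macrophage-like line with no genetic change named in the labels, treated with 10 µg/ml actinomycin D for 0, 2, 4 or 6 h. The RNA is labelled cytoplasmic and was depleted of rRNA. There was 1 library at each time, so no ratio below has a replicate and none was tested.

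Actinomycin D slides into DNA and stops RNA polymerases, so that in a shut-off course RNAs are lost by decay and are hardly replaced. Short-lived RNAs, such as those of immediate-early genes and inflammatory cytokines, leave early, and their 3′ UTRs often carry AU-rich elements that recruit decay factors. Small nucleolar RNAs (snoRNAs), small Cajal body RNAs (scaRNAs), spliceosomal RNAs and the RNAs of RNase P and RNase MRP sit in stable protein complexes. Replication-dependent histone mRNAs carry a 3′ stem-loop where other mRNAs carry poly(A), and they are degraded quickly once DNA synthesis stops.

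Total counts were 70289647 at 4 h and 12762100 at 6 h, so the 6 h library was 5.51 times shallower and sets most of the counting error. Counts were scaled by TMM, a factor that places the typical gene near no change. A level is given as CPM, the share of a library's TMM-adjusted total, and a difference as the log2 ratio of 6 h over 4 h. Only the filter, the level cut-offs and the groups by level used CPM of the unscaled library totals. Such a ratio tells how an RNA moved against the typical RNA, and no loss of total RNA was measured. A gene was called higher or lower where the ratio passed 1.5-fold and its exact 95% counting interval left out no change. These intervals cover counting error alone, and a difference between cultures or library preparations cannot be told apart from a difference in time. Markers of the macrophage lineage were present at 28.6 to 2259 CPM at 4 h and at 29.5 to 2694 CPM at 6 h for 9 of 9 genes (Csf1r, Cd68, Adgre1, Itgam, Spi1, Lyz2, Tyrobp, Fcer1g and Ptprc). The 39 listed markers of other cell types summed to 1.88 CPM at 4 h and 2.28 CPM at 6 h, and 24 of them were at 0 in both libraries.

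Most genes moved little. The middle of the 10837 ratios lay at −0.02, the quartiles at −0.14 and 0.10, and 8435 genes (77.8%) stayed within 1.2-fold. At 6 h 155 genes were lower (1.43% of those tested) and 280 were higher (2.58%). The genes that were lower included 32 replication-dependent histones and 89 other protein-coding genes. Those that were higher included 64 snoRNA, scaRNA and snRNA genes and 140 protein-coding genes. Of the 155 lower genes 108 also had a ratio below 0 at both earlier steps, and 8 had one above 0 at both. Of the 280 higher genes 103 had a ratio above 0 at both, and 68 had one below 0 at both. The same was not counted over all genes, so these counts have no background share. The step from 2 h to 4 h also shares the 4 h library with the late step.

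Calls were concentrated where counts were low, and their make-up changed with abundance. Below 3 CPM, where the counting interval reached a median of 0.71 to either side on the log2 scale, 60 of 1350 genes were lower and 119 higher. Over 100 CPM, where it was 0.065, the numbers were 2 and 23 of 2066 genes. Those 2 were Hist1h4d and Hspa8. Of the 23, those annotated as protein-coding were Spp1, Ccl9, Plau, Gpnmb, Car2 and Lars2, and the rest were structural RNAs, the mitochondrial rRNAs and 1 clone-named gene, RP23-81C12.3.

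**Figure D1:**
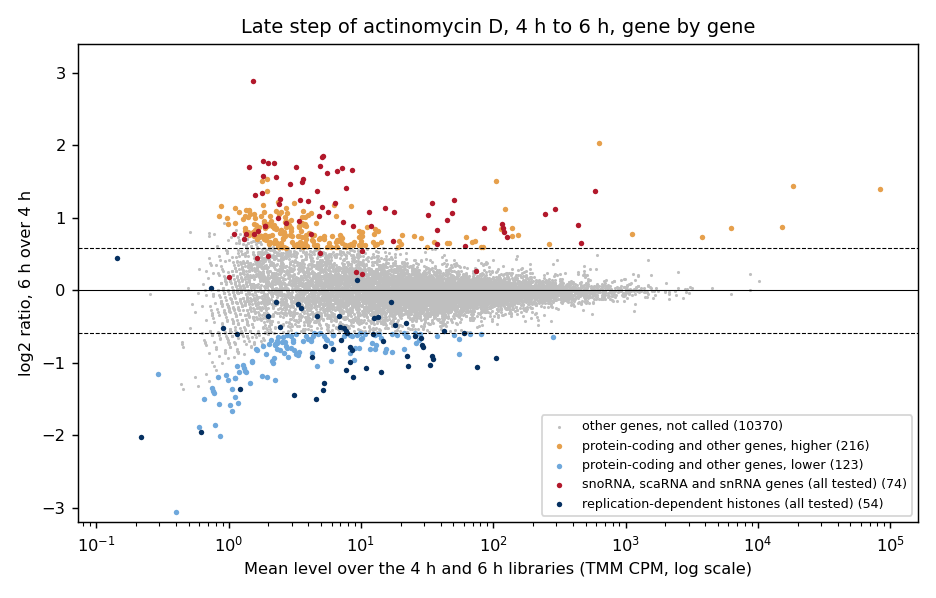
Each point is 1 gene, with its mean level over the 4 h and 6 h libraries on a log axis and its log2 ratio of 6 h over 4 h. The level is in CPM of the unscaled library totals, although the axis is labelled TMM CPM. Dashed lines mark 1.5-fold. Snora70, at 2.89, is the highest point, small structural RNAs (red) lie above 0 at every level, and replication-dependent histones (dark blue) lie below it apart from 3 genes.

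The sequences below belong to RNAs described further on. They are 2 snoRNAs of the H/ACA kind and 2 of the C/D kind that were higher at 6 h. With them are 4 histone mRNAs that were lower. The last 2 are mRNAs with an AU-rich site that were lost early and stood higher at 6 h than at 4 h. All sequences were read from GENCODE M21 transcripts on GRCm38/mm10 and are given as the DNA letters of the RNA strand, 5′ to 3′.

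H/ACA snoRNAs guide the change of uridine to pseudouridine and end in an ACA box 3 bases from the 3′ end, shown in capitals. Snora57 lies at chr19:8888538-8888685 on the minus strand, and Snora23 at chr7:110046364-110046547 on the plus strand, inside Ipo7.
Snora57: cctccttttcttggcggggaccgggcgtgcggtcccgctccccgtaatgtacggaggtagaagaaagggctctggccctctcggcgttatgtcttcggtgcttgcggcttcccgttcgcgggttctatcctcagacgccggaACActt
Snora23: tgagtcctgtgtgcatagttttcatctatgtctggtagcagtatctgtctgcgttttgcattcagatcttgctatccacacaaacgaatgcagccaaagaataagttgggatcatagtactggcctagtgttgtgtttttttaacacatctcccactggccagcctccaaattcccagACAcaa
The ACA box at this position was in 38 of the 57 annotated snoRNA genes tested, against 256 of the 1455 in the whole table (17.6%), a table in which most snoRNA genes had few counts or none. The box was looked for on the RNA strand only. The 38 had a median log2 ratio of 1.2, and 33 of them were higher at 6 h. Of all 57 tested, with or without the box, 50 were higher, against 2.58% of all genes.

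C/D snoRNAs guide the methylation of ribose and carry a C box (TGATGA) near the 5′ end and a D box (CTGA) near the 3′ end, both in capitals. Snord15b lies at chr7:99479563-99479707 on the minus strand in Rps3, and Snord17 at chr2:144265979-144266216 on the minus strand in Snx5.
Snord15b: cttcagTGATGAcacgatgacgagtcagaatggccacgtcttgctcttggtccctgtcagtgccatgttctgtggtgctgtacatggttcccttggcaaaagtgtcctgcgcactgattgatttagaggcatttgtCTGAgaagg
Snord17: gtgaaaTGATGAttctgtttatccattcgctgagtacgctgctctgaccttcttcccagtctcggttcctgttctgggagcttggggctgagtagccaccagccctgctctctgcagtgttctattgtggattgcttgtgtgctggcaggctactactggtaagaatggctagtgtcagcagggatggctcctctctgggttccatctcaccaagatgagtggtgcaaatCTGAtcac
Both boxes, TGATGA in the first 20 and CTGA in the last 12 bases of the RNA strand, were in 7 of the 57 snoRNA genes tested and in 292 of 1455 in the table (20.1%). All 7 were higher at 6 h, with a median of 1.09, against 50 of all 57 with a median of 1.14. No difference by box was tested.

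Histone stem-loops, 16 bases with a stem of 6 base pairs, are in capitals. They sit at chr13:23747198-23747223 (Hist1h2bb, plus strand), chr13:23531453-23531478 (Hist1h4h, plus), chr13:23561898-23561923 (Hist1h3e, minus) and chr13:23739507-23739532 (Hist1h1c, plus), in the 3′ UTR of each mRNA.
Hist1h2bb: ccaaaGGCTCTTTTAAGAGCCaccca
Hist1h4h: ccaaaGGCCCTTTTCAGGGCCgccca
Hist1h3e: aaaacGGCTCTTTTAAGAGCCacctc
Hist1h1c: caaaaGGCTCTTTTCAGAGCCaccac
A loop of this form (GG at the start of a perfect 6-base stem, a 4-base loop that starts with TT) was found in the annotated transcripts of 35 of the 54 histone genes tested and in 0.27% of 9638 other 3′ UTRs.

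The AU-rich nonamer TTATTTATT, in capitals, lies at chr12:85477104-85477130 (plus strand) in the Fos 3′ UTR and at chr17:35199690-35199716 (minus strand) in the Tnf 3′ UTR.
Fos: gttttcaatTTATTTATTaagatggat
Tnf: ttgcacttaTTATTTATTatttattta
The nonamer, searched on the RNA strand only, was in 712 of the 9638 3′ UTRs (7.39%).

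Small structural RNAs made up a large part of the higher genes. All 27 measured members of the list of named snoRNAs and scaRNAs had a ratio above 0, their median was 1.08, and 24 were higher at 6 h, against 2.58% of all genes. The list holds 147 genes of the table, of which 120 were under the filter of 1 CPM over the 4 libraries. Of those, 86 had no count at 4 h or 6 h, and the other 34 summed to 319 counts at 4 h and 99 at 6 h, a ratio of 0.93 (0.59 to 1.26). Since the filter used the 6 h library too, a member could pass it through a high level there.

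Members of the H/ACA, C/D and Cajal body kinds were all above 0, and no difference between the kinds was tested. The 18 Snora genes had a median of 1.06 with 15 higher, the 5 Snord genes 1.14 with 5 higher, and the 4 Scarna genes 1.03 with 4 higher. Snora57 stood at 20.8, 20.1, 20.99 and 48.5 CPM at 0, 2, 4 and 6 h, a ratio of 1.21 (1.07 to 1.34). Its level was flat over the first 3 libraries and higher in the last. Snora23, shown above with its ACA box, stood at 6.08, 6.32, 21.2 and 43.5 CPM and so had moved already between 2 h and 4 h. Its late ratio was 1.04 (0.89 to 1.18).

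Snord15b, which lies inside the ribosomal protein gene Rps3, stood at 7.45, 7.11, 9.56 and 21.02 CPM, a late ratio of 1.14 (0.93 to 1.34). Snord17 went through 51.0, 55.9, 94.3 and 158 CPM, and its late ratio was 0.74 (0.67 to 0.82). Scarna2, the most abundant member, stood at 169, 265, 360 and 564 CPM and gained less in the late step, 0.65 (0.61 to 0.68). Scarna13, an RNA of the same kind, had 20.95, 22.8, 30.3 and 71.9 CPM, and its late ratio was 1.25 (1.13 to 1.36). The highest member that reached 5 CPM was Snord22, with 4.36, 2.85, 2.26 and 8.06 CPM and a ratio of 1.83 (1.46 to 2.20). Below that level Snora70 was higher still, with 28 counts at 4 h and 34 at 6 h from libraries that differ 5.51 times in depth, a ratio of 2.89 (2.13 to 3.67). Snora17 at 0.54 (0.27 to 0.80) was the lowest of the members above 5 CPM and was not called.

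Annotated genes of these kinds, unnamed copies included, were counted as well. The 57 snoRNA genes had a median of 1.14 with 50 higher, the 10 scaRNA genes 0.74 with 8 higher, and the 7 genes annotated as snRNA 1.00 with 6 higher. Their median annotated lengths were 137, 215 and 151 bases. Among mRNAs the 1943 with the shortest transcripts, with a median of 1268 bases, had a median ratio of −0.04, and the histone mRNAs, with a median of 532 bases, were lower. No protein-coding transcript tested was shorter than 311 bases, and whether recovery of short RNAs differed between the 2 libraries was not tested. Near-identical copies, such as Snora73a and Snora73b or the snRNA genes, may share reads, and how the authors' counting treated these is not stated in the labels or the file header.

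The larger structural RNAs moved with them. Rpph1, the RNA of RNase P, which trims tRNA precursors, stood at 9432, 8368, 10737 and 19675 CPM at 0, 2, 4 and 6 h. Rmrp, the RNA of RNase MRP, which cuts the rRNA precursor, stood at 4689, 3397, 4465 and 8103 CPM. Rn7sk, the 7SK RNA that holds the elongation factor P-TEFb, stood at 2561, 2156, 2823 and 4708 CPM. All 3 dipped at 2 h, were back near the untreated level at 4 h and were highest at 6 h. Their late ratios were 0.87, 0.86 and 0.74, and together they took 1.93% of all counts at 4 h and 3.12% at 6 h. Terc, the template RNA of telomerase, had 55.6 CPM at 4 h and 89.0 CPM at 6 h (0.68, 0.58 to 0.78). Rprl3, an RNase P RNA-like gene that may share reads with Rpph1, was the highest of the list at 1.13, with a lower limit of 1.05. In the list as a whole 10 genes were measured, the median was 0.86, and 9 were higher, all 10 lying above 0. The other 18 of its 28 genes were under the filter, with 43 counts at 4 h and 12 at 6 h (0.77, −0.29 to 1.72).

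Most snoRNAs are cut from introns of other genes, so each can be set beside its host. This pairing was made after the values were seen. Of the 67 snoRNA and scaRNA genes tested, 56 lay on the same strand inside 1 measured host, 44 hosts in all. The small RNA was above its host in 54 of 56 pairs, and in 48 pairs the 2 intervals did not overlap. The same was not counted for other pairs of genes. The small RNAs had a median of 1.13 with 49 higher, against 2.58% of all genes. All had passed the filter, which used the 6 h library too. The hosts had a median of −0.01 with 0 called, their ratios running from −0.57 to 0.46. Calls were rare among all genes too, 1.43% lower and 2.58% higher.

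Single pairs show how far a small RNA and its host mRNA parted. Rps3, a protein of the small ribosomal subunit, was at 1131 CPM at 4 h and 1149 CPM at 6 h (0.02), while its Snord15b more than doubled. Ipo7, a nuclear import receptor, was at 462 and 453 CPM (−0.03), with Snora23 at 1.04 and Gm25636 at 1.53. Atg16l1, an autophagy factor, had 17.1 and 17.8 CPM (0.06), below the Scarna6 inside it, which had 83.8 and 153 CPM (0.87). In Rpl10, Snora70 at 2.89 faced a host at −0.12. The 2 pairs in which the small RNA did not exceed the host were Gm22620 (0.18) and Gm23455 (0.22), both in Taf1d (0.25), although Gm25791 in the same host reached 1.69. Among 17 measured genes of the listed snoRNA hosts, which include spliced non-coding hosts such as Snhg12 (0.54, 0.30 to 0.77), the median was 0.25 with 0 called.

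**Figure D2:**
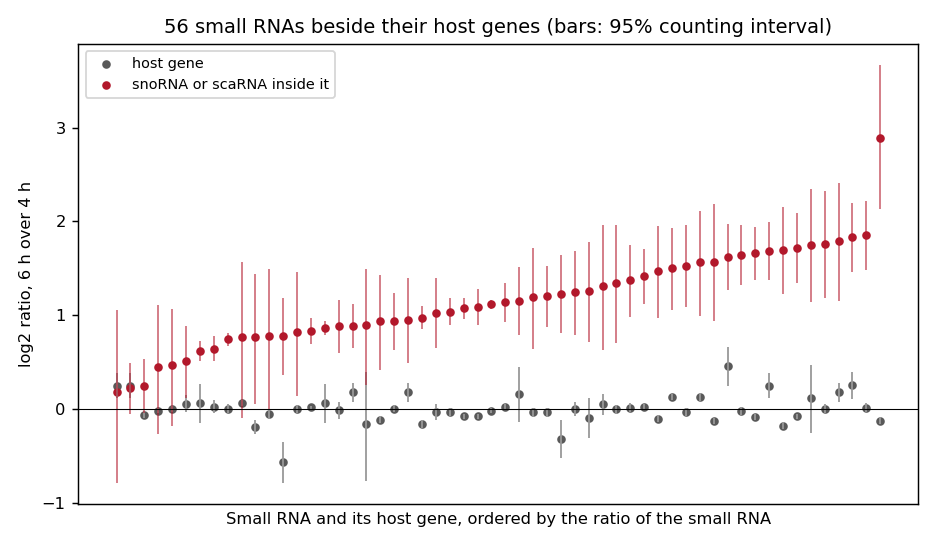
Log2 ratio of 6 h over 4 h for 56 snoRNA and scaRNA genes (red) and for the gene inside which each lies (grey), with 95% counting intervals as bars, ordered by the small RNA. The small RNAs run from 0.18 to 2.89 and the hosts stay between −0.57 and 0.46.

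The mitochondrial rRNAs had the largest shift in counts. mt-Rnr2, the RNA of the large mitochondrial ribosomal subunit, stood at 16714, 31768, 46587 and 123226 CPM at 0, 2, 4 and 6 h, and mt-Rnr1, of the small subunit, at 4095, 8028, 10108 and 27374 CPM. Both were higher at each later time, and the late ratios of 1.40 and 1.44 were the largest of their 3 steps. Together they took 6.06% of counts at 4 h and 14.5% at 6 h.

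The mRNAs of the mitochondrial genome did not share this shift. Of 13 mitochondrially encoded protein genes 7 were measured, with a median of −0.11 and 0 called. mt-Co1, the catalytic subunit of cytochrome oxidase, was at 2776 CPM at 4 h and 2576 CPM at 6 h (−0.11). mt-Nd2, a complex I subunit, was the highest at 0.35 (0.25 to 0.44), and mt-Cytb, cytochrome b, the lowest at −0.43 (−0.48 to −0.37). Since rRNA had been depleted from the libraries, the counts of mt-Rnr1 and mt-Rnr2 are what depletion left, and a difference in depletion between the libraries was not tested. The clone-named gene RP23-81C12.3, which held 3.54% of counts in the untreated library, moved in the same direction at 2.04 (18704 counts at 4 h and 12555 at 6 h), whereas RP23-81C12.1, with 23.1% of counts in the untreated library, was at −0.07.

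Lars2, the leucyl-tRNA synthetase of mitochondria, had the highest ratio of any protein-coding gene. It stood at 71.0, 53.1, 55.4 and 157 CPM, a late ratio of 1.504 (1.43 to 1.58), and lies at chr9:123366927-123462666 on the plus strand. That ratio was near those of mt-Rnr2 and mt-Rnr1 (1.40 and 1.44). At the 2 earlier steps Lars2 was at −0.42 and 0.06, and the mitochondrial rRNAs had medians of 0.95 and 0.44. Whether reads of other RNAs were counted in Lars2 was not tested.

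Replication-dependent histones were the largest group on the lower side. Of 54 measured genes 32 were lower, against 1.43% of all genes, and 0 were higher, with a median ratio of −0.69. The median member stood at 17.5% of its untreated level at 2 h, 6.01% at 4 h and 3.23% at 6 h, and the medians of the 3 steps were −2.51, −1.67 and −0.69. The median ratio thus came closer to 0 with each step. At 6 h the 66 listed genes together held 7344 counts, against 76655 at 4 h.

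The classes of histone differed in how many were called. Of the H3 genes 9 of 10 were lower, with a median of −0.92, and of the H4 genes 9 of 12, with −0.78. Of the H2B genes 7 of 15 were lower (−0.60), of the H2A genes 4 of 12 (−0.51), and of the linker H1 genes 3 of 5 (−0.59). No test of the difference between classes was made, and near-identical histone genes may share reads.

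Hist1h4d, the most abundant at 4 h, stood at 920, 293, 135 and 70.4 CPM, a late ratio of −0.94 (−1.04 to −0.84). Hist2h2bb stood at 714, 236, 99.1 and 47.7 CPM (−1.06, −1.18 to −0.94). Hist1h2bb, whose loop is printed above, stood at 355, 62.0, 18.7 and 8.55 CPM (−1.13, −1.43 to −0.84). Levels dropped at each time in all 3, and at 6 h they stood at 7.65%, 6.67% and 2.41% of the untreated library. Hist1h4h, with a loop whose stem is GGCCCT, had 29.3 CPM at 4 h and 14.3 CPM at 6 h (−1.04), and Hist1h3e, with GGCTCT, had 28.0 and 14.9 CPM (−0.91). The linker gene Hist1h1c, with the same stem as Hist1h3e, had 70.4 and 46.7 CPM (−0.59, −0.72 to −0.47) and only just passed the fold.

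The 35 histone genes with the loop in their annotated transcript had a median of −0.76 with 21 lower, and the 19 without it −0.69 with 11 lower. Of those 19, 13 have an annotated transcript that ends under 20 bases after the stop codon, so the loop could not be looked for there. Hist2h2be, whose annotated transcript runs on for 2192 bases after the stop codon without such a loop, stood at 6.34, 7.76, 8.82 and 9.78 CPM (0.15, −0.15 to 0.43). The 9 measured genes listed as variant histones, most of them made outside replication from polyadenylated mRNAs, had a median of −0.02 with 0 called. H2afz among them was at 490 and 461 CPM, and H2afx was the lowest at −0.21 (−0.27 to −0.14). Unlike the list, with medians of 0.19 and 0.11 at the earlier steps, H2afx had been lost early, at 756, 321, 223 and 193 CPM.

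Of the immediate-early genes, transcription factors and regulators switched on without new protein, 10 of 34 measured were higher at 6 h and 0 lower, against 2.58% and 1.43% of all genes. The other 24 were not called, and the median was 0.34 against −0.02. A further 5 listed genes were under the filter, which used the 6 h library too, with 59 counts at 4 h and 23 at 6 h. A ratio above 0 was found in 30 of the 34, against 4773 of all 10837 genes. The counting interval lay above 0 in 20 of them, against 1413 of all genes, and below 0 in none, against 2151. The medians at the earlier steps were −1.45 and 0.09, so that the median member stood at 36.6%, 37.4% and 47.4% of its untreated level at 2, 4 and 6 h. Of the 22 members past a log2 ratio of −1 by 2 h, 19 had a late ratio above 0, against 581 of the 959 such genes in the whole set.

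Fos, a subunit of the AP-1 factor, stood at 27.7, 4.24, 5.20 and 7.90 CPM (391 counts at 4 h and 97 at 6 h), a late ratio of 0.60 (0.27 to 0.93). Jun, its partner, stood at 62.1, 24.9, 35.7 and 56.4 CPM (0.66, 0.54 to 0.78). Ier2, another early response gene, stood at 46.4, 21.9, 25.2 and 38.2 CPM (0.60, 0.45 to 0.75). All 3 were lowest at 2 h and higher at each time after it. Trib1, a pseudokinase that directs protein turnover, reached 0.73 (0.41 to 1.04) and Ier5 0.66 (0.52 to 0.80). The AP-1 member Jund went the other way within its error, with 43.6 and 41.1 CPM (−0.09, −0.22 to 0.05). Srf, the factor that binds the promoters of many of these genes and the most abundant member, had not been lost, with 119, 106, 113 and 123 CPM (0.12, 0.04 to 0.20). Jun, Ier5 and the genes named in the next 2 paragraphs that the naming rule did not reach (Ccl9, Ccl3, Osm, Ptgs2, Nr1d1, Dusp5, Rgs1) were chosen after their values were seen.

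Of 17 measured cytokines and chemokines 7 were higher at 6 h, against 2.58% of all genes, and 0 were lower. The other 19 of the 36 listed were under the filter, with 237 counts at 4 h and 52 at 6 h (0.43, −0.04 to 0.86). Since the filter used the 6 h library too, a member could pass it through a high level there. The values that follow are of the 17. Their median was 0.29, and 16 had a ratio above 0, against 4773 of all 10837 genes. By 2 h 5 of the 17 were past a log2 ratio of −1. Tnf, the inflammatory cytokine whose nonamer is shown above, stood at 81.2, 13.5, 15.1 and 22.8 CPM (0.59, 0.40 to 0.78). Spp1, osteopontin, stood at 465, 520, 819 and 1408 CPM (0.78, 0.76 to 0.81), and so ended well above its untreated level. The chemokine Ccl9 had 204 CPM at 4 h and 319 CPM at 6 h (0.64), and Ccl3 had 46.8 and 77.8 CPM (0.73). Il1rn, the antagonist of the interleukin 1 receptor, was the highest at 2.96, 2.83, 4.29 and 8.72 CPM (1.02, 0.69 to 1.34). Osm, oncostatin M, reached 0.82 (0.31 to 1.30) from 160 counts at 4 h and 46 at 6 h. Cxcl16 was the one member below 0, at −0.28 (−0.48 to −0.09).

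Counts in 4 other lists of regulators stand beside the same 2.58% higher and 1.43% lower, and no difference between lists was tested. These shares depend on level, and of all genes at 3 to 10 CPM 5.28% were higher and 2.67% lower. Of 31 feedback regulators of signalling 2 were higher, the phosphatase Dusp5 (0.90) and Rgs1 (0.93), with a median of 0.17. Of 18 clock genes 2 were higher, Ciart (0.74) and Nr1d1 (0.95), both repressors of the clock, with a median of 0.14. Of 235 measured Zfp genes, most of them zinc finger transcription factors, 15 were higher and 1 lower, with a median of 0.11. Zfp513, at 15.3, 7.43, 7.31 and 12.6 CPM (0.79, 0.52 to 1.05), was the highest of those at 5 CPM or more. The Zfp genes had a median counting interval of 0.39 to either side, near the 0.37 of all genes at 3 to 10 CPM. Their share of 6.38% higher was thus near the 5.28% at that level. Of 30 NF-kB pathway genes 1 was higher, Nfkbiz (0.69, 0.42 to 0.95), a share near that of all genes, and the median was −0.04. Nfkbia, the inhibitor of NF-kB, which had the deepest early loss among the benchmarks, went through 118, 11.3, 11.4 and 13.8 CPM (0.27, 0.02 to 0.51). Mcl1, a short-lived survival factor, stood at 389, 136, 109 and 128 CPM (0.23, 0.15 to 0.30). Neither was called, and Ptgs2, cyclooxygenase 2, was higher at 0.75 (0.49 to 1.01).

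The calls for genes just past 1.5-fold turn on the scaling. Fos, Tnf, Ier2, Zc3h12a and Cd36 were not called with the divisors behind the deposited normalized columns, nor with total counts, which shifts every log2 ratio by −0.15. With total counts Trib1, Nfkbiz, Eno2, Ppm1d, Bcl2a1b, Scarna2 and Snora73a were not called either. The same shift takes Jun, Ier5, Ccl9, Ccl3, Terc, Igf1 and Maff under 1.5-fold too. Ier2 and Tnf were also not called with total counts less 4 rRNA-like genes. On the lower side Gtf2b, Eif2b4 and Sqle were not called with DESeq2 size factors, whose shift of 0.02 also brings Hist1h1c inside 1.5-fold. Other genes this near 1.5-fold may turn on the scaling as well. Under total counts 1 immediate-early gene and 4 cytokines were higher. All genes together then split into 378 lower and 168 higher, 69.2% lower, against 35.6% lower with TMM.

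**Figure D3:**
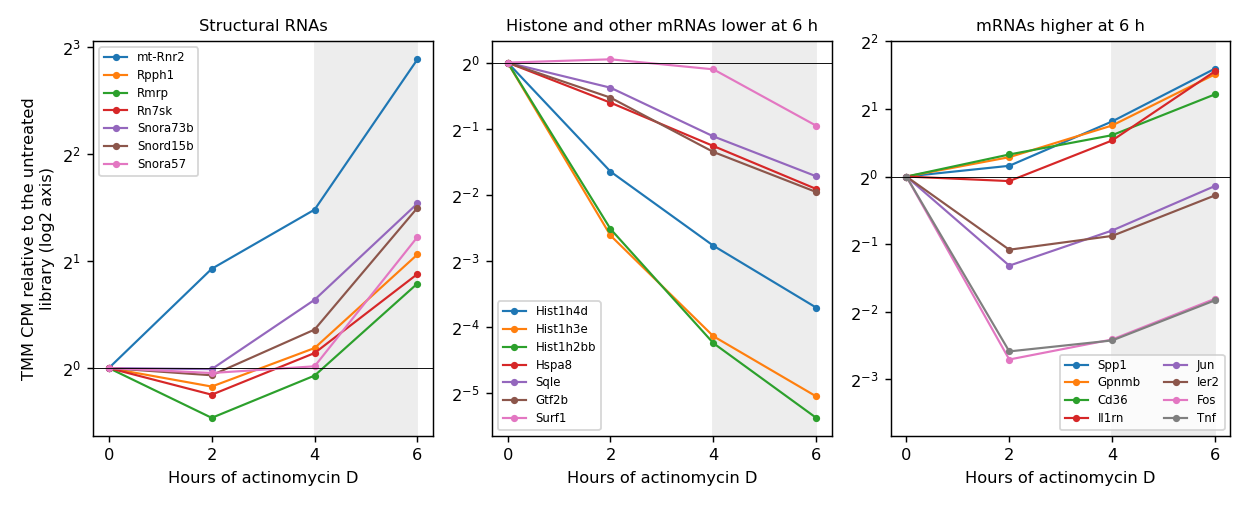
TMM CPM relative to the untreated library on a log2 axis against hours of actinomycin D, for structural RNAs, for mRNAs lower at 6 h and for mRNAs higher at 6 h, with the late step shaded and 1 library at each time. Fos and Tnf are lowest at 2 h and end at 28.5% and 28.1% of the untreated library, Spp1 ends at 303%, and Hist1h2bb at 2.41%.

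Of 38 macrophage identity genes 1 was higher, Cd36, a share near the 2.58% of all genes, and of 52 lysosomal genes 2 were, Gpnmb and Ctsh. Gpnmb, a lysosomal glycoprotein of activated macrophages, stood at 67.5, 82.4, 114 and 193 CPM (0.76, 0.69 to 0.82). Cd36, a scavenger receptor, stood at 42.0, 52.6, 64.1 and 97.5 CPM (0.60, 0.51 to 0.70). Both were higher at every later time, as was Spp1. The following genes, and Ctsh among the lysosomal ones, are single genes chosen after their values were seen. Car2, carbonic anhydrase 2, stood at 43.8, 54.2, 81.9 and 147 CPM (0.85, 0.77 to 0.92), Plau, the urokinase, had 103 CPM at 4 h and 173 CPM at 6 h (0.75, 0.68 to 0.82), and Ctsh, cathepsin H, had 18.6 and 31.3 CPM (0.75, 0.58 to 0.91). Igf1, a growth factor made by macrophages, had 21.4 and 35.5 CPM (0.73, 0.57 to 0.88). Lilr4b, an inhibitory receptor of myeloid cells, reached 0.87 (0.62 to 1.12).

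The 38 macrophage identity genes had a median of 0.06 with 26 above 0, and the 52 lysosomal genes a median of 0.05 with 41 above 0, against a median of −0.02 and 4773 of 10837 above 0 for all genes. Fcgr1, the high-affinity receptor for antibody, was the lowest of the macrophage genes at 5 CPM or more, at 94.3 and 67.7 CPM (−0.48, −0.58 to −0.37). The most abundant of these, Lyz2, lysozyme, had 2259 and 2694 CPM (0.25, 0.24 to 0.27). Ctsb, cathepsin B, was the most abundant lysosomal gene at 0.21 (0.19 to 0.23).

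Several mRNAs outside the histones continued at 6 h a loss that the earlier libraries already showed. Hspa8, the constitutive cytosolic chaperone of the HSP70 family, stood at 802, 527, 334 and 213 CPM, with log2 ratios of −0.61, −0.66 and −0.65 at the 3 steps. Its loss per step hardly varied. Sqle, squalene epoxidase of cholesterol synthesis, stood at 169, 130, 78.1 and 51.4 CPM (−0.60, −0.73 to −0.49 in the late step). Gtf2b, the general transcription factor TFIIB, stood at 32.0, 22.1, 12.5 and 8.23 CPM (−0.61, −0.92 to −0.31). Ripk1, a kinase of cell death signalling, stood at 64.3, 43.4, 27.0 and 17.4 CPM (−0.64, −0.85 to −0.43). Eif2b4, a subunit of the exchange factor for eIF2, had 2254 counts at 4 h and 245 at 6 h (−0.59, −0.78 to −0.40).

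In Surf1 and Ppwd1 the late ratio was further below 0 than either earlier one. Eif2b4 and Pitpnb had this too, but their ratio from 2 h to 4 h lay inside the late counting interval. Pitpnb, a phosphatidylinositol transfer protein and the lowest mRNA outside histones at 10 CPM or more, stood at 138, 123, 69.5 and 37.7 CPM, a late ratio of −0.88 (−1.02 to −0.74) after −0.82 from 2 h to 4 h. Surf1, an assembly factor of cytochrome oxidase, stood at 23.1, 23.9, 21.5 and 11.9 CPM (−0.85, −1.11 to −0.61). Orc1, the largest subunit of the origin recognition complex, stood at 22.7, 11.2, 11.3 and 5.78 CPM (−0.96, −1.33 to −0.61). Surf1 was near its untreated level until 4 h. Orc1, with an early ratio of −1.02, was flat from 2 h to 4 h and then lower at 6 h. Ppwd1, a peptidyl-prolyl isomerase, reached −0.85 (−1.12 to −0.59) after −0.29 and −0.31 at the earlier steps.

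Further single genes on the lower side with 60 or more counts at 6 h were chosen after their values were seen. They were Nop2, an rRNA methyltransferase (94.4 CPM at 4 h and 61.9 CPM at 6 h, −0.61), Wdr43 (39.2 CPM at 6 h, −0.61), Brix1 (31.8 and 19.1 CPM, −0.73) and Ngdn (19.1 and 10.8 CPM, −0.81), whose products act in ribosome assembly. Nufip1, an assembly factor of C/D snoRNA complexes, was at 10.4 and 5.70 CPM (−0.86, −1.24 to −0.51), while the C/D snoRNAs measured were higher. Msh6 of mismatch repair (66.2 and 41.5 CPM, −0.67), the clamp loader subunit Rfc3 (26.0 and 14.9 CPM, −0.80) and the translesion polymerase Polh (25.8 and 16.7 CPM, −0.63) were lower too. No list of these functions was counted.

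Lists of large complexes and housekeeping functions had few or no calls, as had abundant genes in general. Of all genes at 30 to 100 CPM 0.35% were lower and 0.58% higher, and over 100 CPM 0.097% and 1.11%. All 82 ribosomal protein mRNAs measured stayed uncalled with a median of 0.00, running from Rps6 (−0.18) to Rpl29 (0.29) among those at 5 CPM or more. The 75 nuclear genes of the respiratory chain had a median of −0.04, the 46 proteasome genes −0.08 with 43 below 0 (6064 of all 10837 genes were), the 55 genes of the secretory pathway −0.01 and the 40 cytoskeleton genes 0.02, each with 0 called. Gapdh, Actb and B2m, often used as references, were at 0.00, 0.12 and 0.04. Mitochondrial ribosomal proteins lay lowest of the lists outside histones, with a median of −0.14, 65 of 75 below 0 and 1 lower. Of 52 genes of the G1/S transition and replication 42 were below 0 and 1 was lower, Orc1, with a median of −0.11. Among 46 mitotic genes the kinase Aurka was the lowest at 5 CPM or more (154, 77.7, 46.9 and 32.4 CPM, −0.53, −0.69 to −0.38) and 0 were called. Of 35 interferon-stimulated genes 0 were called, with a median of −0.05.

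The remaining lists had at most 1 gene called in each direction. Among all genes 1.43% were lower and 2.58% higher, so counts this small do not set these lists apart. The transcription machinery (57 genes, median −0.08), translation factors (49, −0.07), heat shock genes (28, −0.09) and sterol and lipid genes (35, −0.03) each had 1 lower, namely Gtf2b, Eif2b4, Hspa8 and Sqle. RNA decay factors (68, −0.01), glycolysis (22, −0.02), p53 targets (24, 0.05) and iron and antioxidant genes (31, 0.00) each had 1 higher. These were Zc3h12a, an RNase that cuts cytokine mRNAs (0.60, 0.29 to 0.90), the enolase Eno2 (0.67, 0.38 to 0.94), Ppm1d, a phosphatase that dampens p53 (0.65, 0.34 to 0.96), and Maff, a small Maf protein also listed as immediate-early (0.62, 0.05 to 1.16). Among apoptosis genes (26, −0.05) Bcl2a1b was higher (0.65) and Ripk1 lower. Splicing factors of the SR and CLK families (30, −0.07) had 0 called, with Clk2 at 0.53 (0.38 to 0.68). Malat1, a nuclear long non-coding RNA, was at 7947 CPM at 4 h and 9310 CPM at 6 h (0.23), although the RNA is labelled cytoplasmic.

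**Figure D4:**
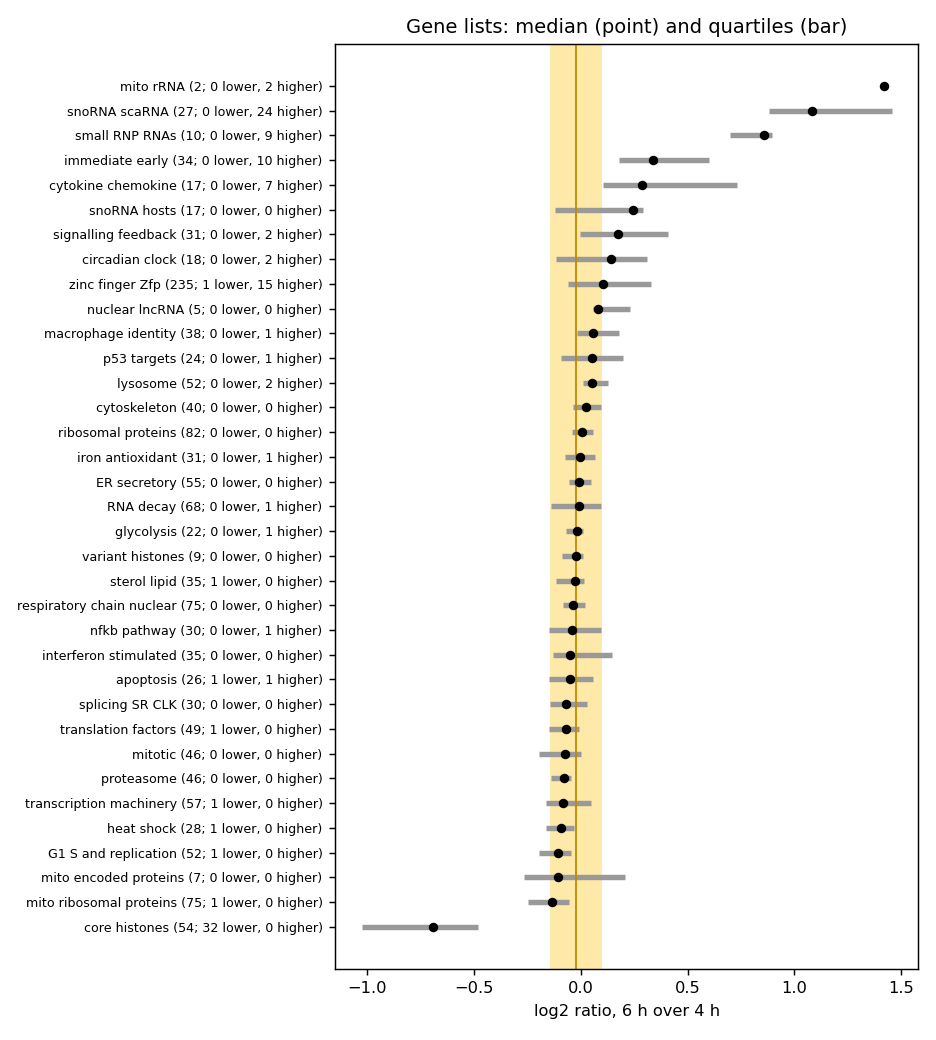
Median (point) and quartiles (bar) of the log2 ratio of 6 h over 4 h for each gene list, with the number of genes measured, lower and higher in the label, over the quartiles (band) and median (line) of all 10837 genes. Mitochondrial rRNA (1.42), snoRNA and scaRNA (1.08) and small RNP RNAs (0.86) lie to the right of the other lists and replication-dependent histones (−0.69) to the left.

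The log2 ratio of the first 2 h hardly ranked genes by that of the late step, though calls were most frequent in both extreme groups. These ratios share no library. Across 10837 genes Spearman's rho between the log2 ratio of 2 h over 0 h and that of 6 h over 4 h was 0.05, a description over genes that are not independent. In 10 equal groups ordered by early ratio, the group with the largest early loss (median −1.35) had a late median of 0.08, and 0.10 without its 53 histones. Without histones 17 of its genes were lower and 64 higher. The next group (early median −0.66) had a late median of −0.04 with 31 lower and 27 higher, and the fourth had the lowest, −0.07. The group with the highest early ratio (median 0.44) had a late median of 0.01 but 71 genes higher and 17 lower. In the third group 23 genes were lower and 29 higher, and from the fourth to the ninth 4 to 9 were lower and 9 to 19 higher. The median counting interval was 0.35 to either side in the first group and 0.27 in the last, against 0.13 in the sixth. The part of level in these counts was not tested.

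**Figure D5:**
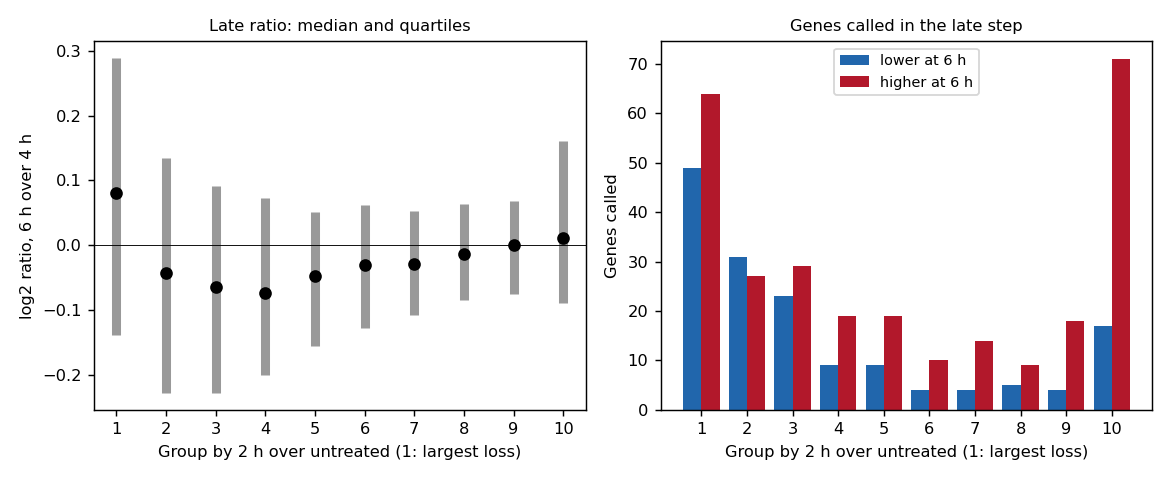
Left, the median (point) and quartiles (bar) of the late log2 ratio in 10 groups of about 1084 genes ordered by the ratio of 2 h over the untreated library, from the largest loss (group 1) up. Right, the genes called lower and higher in each, 64 and 71 being higher in the first and the last group.

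Features of the mRNA followed the late ratio weakly. Among 9714 protein-coding genes outside the histone list, the 143 with 1 exon had a median of 0.18 with 21 higher and 1 lower, those with 2 exons 0.06, and those with 10 or more −0.03. At 10 CPM or more the 71 genes with 1 exon had 0.13 with 8 higher. The 183 with 2 exons had −0.0003 with 0 higher at that level, and the 280 with 3 exons −0.03 with 2 higher. Jun, Ier2 and Ier5 are among the 1-exon genes, and in the group with the largest early loss the 49 such genes had a median of 0.35 with 13 higher. In that same group genes with 10 or more exons had a median of 0.06, with 4 higher and 4 lower.

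In 5 equal groups by GC of the coding sequence, the highest had a median of 0.01 with 67 higher, against −0.04 with 18 higher in the lowest. By 3′ UTR length the medians ran from −0.05 in the shortest of 5 equal groups to −0.01 in the longest. The 712 mRNAs with TTATTTATT had a median of 0.01 with 14 higher, and the 8926 without it −0.03 with 124 higher. With TGTANATA, the site of Pumilio proteins, searched on the RNA strand, 2422 3′ UTRs had a median of −0.02, equal to that of the 7216 without it. Level moved with these groups as well, since in 5 equal groups by level the lowest had a median of 0.04 with 98 higher and the highest −0.02 with 6. Its part in them was not tested outside the 10 CPM comparison given for exons.

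The authors' deposited table gives each gene a half-life in hours, and these rest on the same 4 libraries. Of 279 values for the higher genes in the authors' deposited table, 87 were below 0, as for Spp1 and Gpnmb, against 12 of 155 for the lower genes and 889 of 10402 for the rest. Over the values above 0 in the authors' deposited table the median was 2.55 h for the genes lower at 6 h, 4.04 h for those higher and 7.62 h for the rest. With values below 0 included, the medians from the authors' deposited table were 2.32, 2.04 and 6.59 h, so the order of the lower and higher genes turns on them.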

How the data were processed

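Per the submitters' processing notes, STAR 2.5.3a, featureCounts and Subread 1.6.3 were used on mm10; the annotation, the strand setting and the handling of multimapping reads are not stated there. The deposited counts per gene, whole numbers per the file headers, were used as deposited. The deposited normalized signal columns are those counts divided by 1300, 2250, 4476 and 748 at 0, 2, 4 and 6 h. The deposited half-lives were read as a score.

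Counts were scaled with TMM over the 4 libraries (edgeR 4.0.16, R 4.3.3). Genes needed a mean CPM, of unscaled totals, of at least 1 over the 4 libraries. Log2 ratios had no pseudocount, a count of 0 was set to 3, and exact Clopper-Pearson 95% intervals came from scipy 1.17.1. The procedure was tested on simulated data. Alternatives, 13 in all, covered scaling (DESeq2 1.42.0 size factors among them), filter, pseudocount and call rule. GENCODE M21 gave RNA class, exons and sequences for 9943 of the 10837 genes (91.8%), 145 of them by an older or newer name.

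Named genes are the 12 lowest and 12 highest called genes at 10 CPM or more with no clone or model name, each list's most abundant member and its extremes at 5 CPM or more, and 8 benchmarks. The members, the 37 lists and this rule were chosen with earlier results of these data known.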

Additional observations from a re-analysis of the deposited data

How the results depend on the processing

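No paired analysis was possible because each time has 1 library, and for the same reason no library could be left out. Of 1675 values of named genes under the alternatives, 1608 kept direction and call, 55 lost the call, 12 gained it and 0 reversed. The scaling mattered most. Total counts gave 378 lower and 168 higher genes, 1 immediate-early gene and 4 cytokines higher, and medians of 1.27 for mitochondrial rRNA and 0.71 for small RNP RNAs. The mitochondrial rRNA median was 1.44 with DESeq2 size factors, 1.40 with total counts less 4 rRNA-like genes and 1.39 with the deposited divisors. A filter of 5 CPM left 89 lower and 101 higher genes (46.8% lower, against 35.6%), with 6 immediate-early genes, 4 cytokines and 15 snoRNAs and scaRNAs higher. With no filter 482 genes were higher and the cytokine median was 0.54. Past 2-fold, 45 genes were lower and 80 higher, with 13 histones lower and 0 immediate-early genes, 1 cytokine, 15 snoRNAs and scaRNAs and 2 small RNP RNAs higher. With no demand on the interval 244 genes were lower. Pseudocounts of 0.5 and 2 moved no count by over 1.5 times. Depth at 6 h limits genes below 3 CPM, where a 1.5-fold ratio is within the median counting interval.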
